A study of Mus musculus with 6 samples.

Results

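The genes examined here encode 10 factors listed as acting with NF-Y at promoters, taken from 16490 genes tested on the arrays. The listing rule names them by function and uses no measured value, although earlier results of these data were known when they were chosen. They are Sp1, Sp2, Sp3, Sp4, Usf1, Usf2, Ybx1, Cebpz, Pknox1 and Ep300. RNA came from neuro2a (N2a) cells, a mouse neuroblastoma line, on single-colour Agilent arrays. In the control group (3 arrays, labelled Vector KD) the cells were transfected with an empty miR RNAi vector. In the knockdown group (3 arrays, labelled NFYAand NFYC KD) the vectors carried microRNA-based hairpins that target NF-YA and NF-YC. All arrays come from 1 cell line, the control vector targeted no gene, and no selection of transfected cells is described for these samples, so cells without vector may be present in both groups. The labels do not say whether the replicates are separate transfections, so the p-values measure the spread between these samples, which may be technical.

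NF-Y is a heterotrimer of NF-YA, NF-YB and NF-YC that binds CCAAT sequences close to transcription start sites. It rarely acts alone: GC boxes bound by Sp factors and E-boxes bound by Usf factors often lie next to CCAAT sequences, and NF-Y recruits acetyltransferases such as p300 to the promoter. Ybx1 was first cloned as a protein that bound the CCAAT-containing Y box, and Cebpz (also called CBF) as a CCAAT-binding activator of a heat shock promoter.

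Before the values, the promoter windows of the members are shown, because the factor reduced in these cells reads CCAAT. RefSeq windows (GRCm38.p6) of 300 bases around an annotated start, 250 before it and 50 after, were matched for 7 of the 10 members, not for Usf2, Cebpz and Pknox1. Both strands were searched for CCAAT and the longer CCAATC, which contains it, for the GC box GGGCGG, the E-box CACGTG and the Pknox1 motif TGACAG. Windows are printed 5′ to 3′ on the gene's strand, and capitals mark CCAAT or its reverse complement ATTGG. The following 4 windows were chosen because 3 hold several CCAAT matches, and because Sp1 and Sp4 lie on opposite sides of zero in the comparison that follows.
Sp1, chr15:102406066-102406365, plus strand: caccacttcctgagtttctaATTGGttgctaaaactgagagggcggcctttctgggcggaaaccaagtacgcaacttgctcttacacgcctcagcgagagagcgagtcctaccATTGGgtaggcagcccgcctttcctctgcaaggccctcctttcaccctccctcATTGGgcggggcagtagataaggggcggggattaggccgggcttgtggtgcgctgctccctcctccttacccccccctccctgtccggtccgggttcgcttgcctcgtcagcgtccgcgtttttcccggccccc
Sp2, start 2, chr11:96977639-96977938, minus strand: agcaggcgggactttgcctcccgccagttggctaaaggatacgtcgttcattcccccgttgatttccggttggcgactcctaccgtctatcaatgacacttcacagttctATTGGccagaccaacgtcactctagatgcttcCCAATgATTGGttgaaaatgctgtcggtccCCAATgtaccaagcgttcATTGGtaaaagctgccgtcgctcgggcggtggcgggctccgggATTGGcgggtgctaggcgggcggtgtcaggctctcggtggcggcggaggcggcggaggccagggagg
Ybx1, chr4:119294464-119294763, minus strand: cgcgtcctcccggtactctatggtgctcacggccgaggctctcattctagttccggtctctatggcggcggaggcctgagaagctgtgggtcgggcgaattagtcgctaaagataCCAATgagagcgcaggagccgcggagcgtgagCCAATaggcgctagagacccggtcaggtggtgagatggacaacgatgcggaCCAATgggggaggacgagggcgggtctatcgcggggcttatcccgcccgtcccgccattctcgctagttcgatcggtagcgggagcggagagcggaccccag
Sp4, chr12:118301391-118301690, minus strand: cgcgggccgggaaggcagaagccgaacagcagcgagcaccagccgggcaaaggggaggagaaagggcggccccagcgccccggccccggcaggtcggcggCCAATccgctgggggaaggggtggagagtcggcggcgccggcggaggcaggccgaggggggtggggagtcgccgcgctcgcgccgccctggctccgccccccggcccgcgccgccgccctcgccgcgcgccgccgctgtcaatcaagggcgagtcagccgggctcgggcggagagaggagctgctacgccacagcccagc

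The Sp1 window held 3 CCAAT matches, all on the opposite strand, and the match at -84 to -80 overlapped a GC box at -81 to -76. The Ybx1 window held 3 on the gene's strand. The second of 3 Sp2 windows held 6, spread over both strands, and the other Sp2 windows held 0. Sp4 and one of the Sp3 windows held 1 each, and the Ep300 window and both Usf1 windows held 0. At least 1 match was found in 5 of the 11 member windows, covering 5 of the 7 genes. Among 32851 windows of all genes, 37.4% held at least 1 match and 3.37% held 3 or more. A GC box was found in 9 of the 11 member windows, against 35.7% of all windows, and these 9 covered all 7 genes. The member windows were 53.3% to 78.7% G or C, and the part of base content in the GC box matches was not tested. The E-box was found in 1 member window (7.15% of all windows) and the Pknox1 motif in 2 (19.2%). These are letter matches, and binding was not measured on these arrays.

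**Figure D1:**
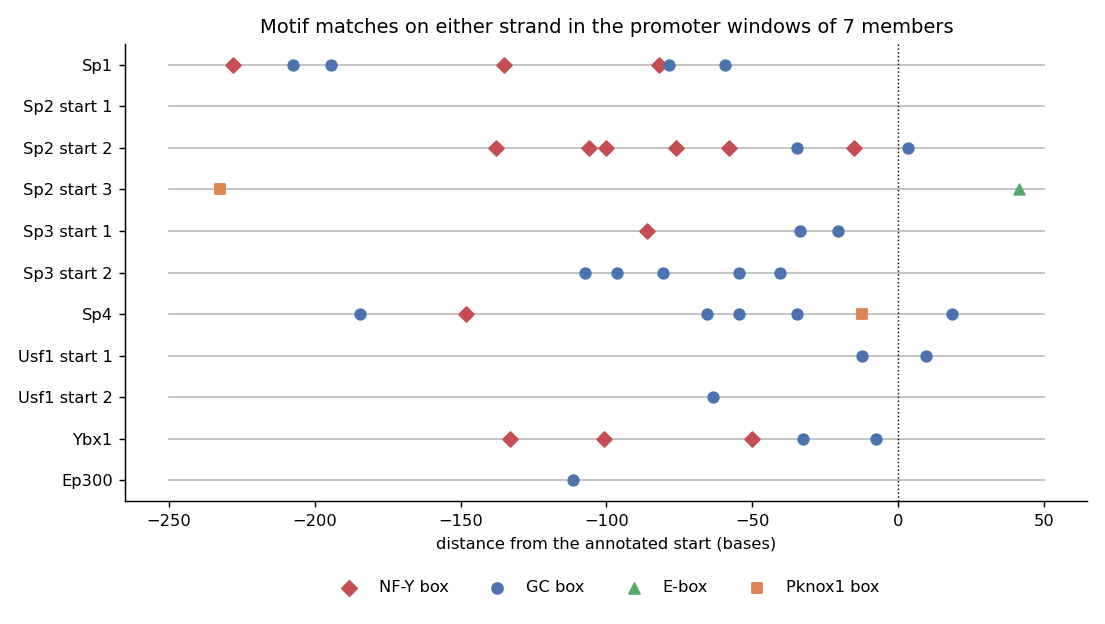
Letter matches in the 11 promoter windows of 7 members, by distance from the annotated start in bases. Diamonds are CCAAT (NF-Y box), circles GGGCGG (GC box), triangles CACGTG (E-box) and squares TGACAG (Pknox1 box), each on either strand. Sp1, the second Sp2 start and Ybx1 hold 3, 6 and 3 diamonds, while no other window holds more than 1.

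The arrays were alike in depth of signal, with some differences by slide row. Between 61.9% and 66.2% of spots per array were well above background, and correlations across probes were 0.989 to 0.994 within groups and 0.987 to 0.990 between groups. The 6 arrays lay on 1 slide and were scanned together, with the controls and knockdown replicate 1 in the first row and knockdown replicates 2 and 3 in the second. Those in the second row had the lowest shares of spots well above background (61.9% and 63.4%) and 259 and 316 outlier spots, against 155 to 209 on the first-row arrays. The part of this difference in the results was not tested beyond the block for slide row given with the members. Of 15 markers of sympathetic neuroblasts, 14 were well above background on all 6 arrays, and Nefl was so on none. The summed marker level, in multiples of the array's 75th percentile, was 301 to 308 in control and 287 to 295 in knockdown. For endothelial markers it was 13.7 to 15.2 and 12.0 to 13.2, with Cdh5 not well above background on any array. For leukocyte markers it was 2.22 to 3.17 and 2.12 to 2.53, and for oligodendrocyte markers 1.32 to 1.49 and 0.959 to 1.04. Astrocyte markers summed to 0.186 to 0.210 and 0.154 to 0.172, with Slc1a3 not well above background, and fibroblast markers to 0.216 to 0.253 and 0.246 to 0.283. The part of these shifts in the results was not tested.

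Values below are log2 processed signal minus the log2 of the array's 75th percentile, so that 0 is the 75th percentile and each unit is a doubling of signal. Changes are knockdown minus control. Adjusted p comes from limma with Benjamini-Hochberg adjustment over 42126 probes, and a gene was called when adjusted p was below 0.05 and the fold change above 1.5. Signal in bulk RNA cannot separate fewer cells that express a gene from less RNA per cell.

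The targeted subunits were examined first. Nfyc read 4.0, 3.93 and 3.98 on control arrays and 2.12, 2.20 and 2.18 on knockdown arrays, or 28.6% of control (limma adjusted p 0.000323). Nfya read 0.14, 0.15 and 0.21 in control and -0.66, -0.52 and -0.59 in knockdown, or 59.1% of control (limma adjusted p 0.00128). Nfyb, which was not targeted, read 1.0, 1.05 and 1.18 in control and 1.91, 1.90 and 1.92 in knockdown, 1.78-fold higher (limma adjusted p 0.00131).

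None of the 10 partner genes was called by limma, in either direction. Over all genes tested, 5.00% were called lower and 3.91% higher. Under adjusted p alone, without a minimum fold, Sp1 fell and Sp4, Cebpz, Pknox1 and Ep300 rose, so that 5 of the 10 passed. The same rule passed 15.8% of all genes as lower and 15.7% as higher, which is the background for 1 lower and 4 higher members. At an unadjusted limma p below 0.05, 8 members passed, 3 lower and 5 higher, and over all genes 22.9% were lower and 23.2% higher. In the same 8 genes the knockdown and control arrays did not overlap, and over all genes 27.1% were separated downwards and 27.7% upwards. The median change was 0.21 over the members and 0.0053 over all genes, and the median absolute change 0.26 and 0.20. On the brightest probe of each member, changes lay between -0.29 and 0.39, short of 1.5-fold in either direction. The dimmer Pknox1 probe changed by 0.55 (1.46-fold), and its 95% interval of 0.37 to 0.73 reached past 1.5-fold.

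**Figure D2:**
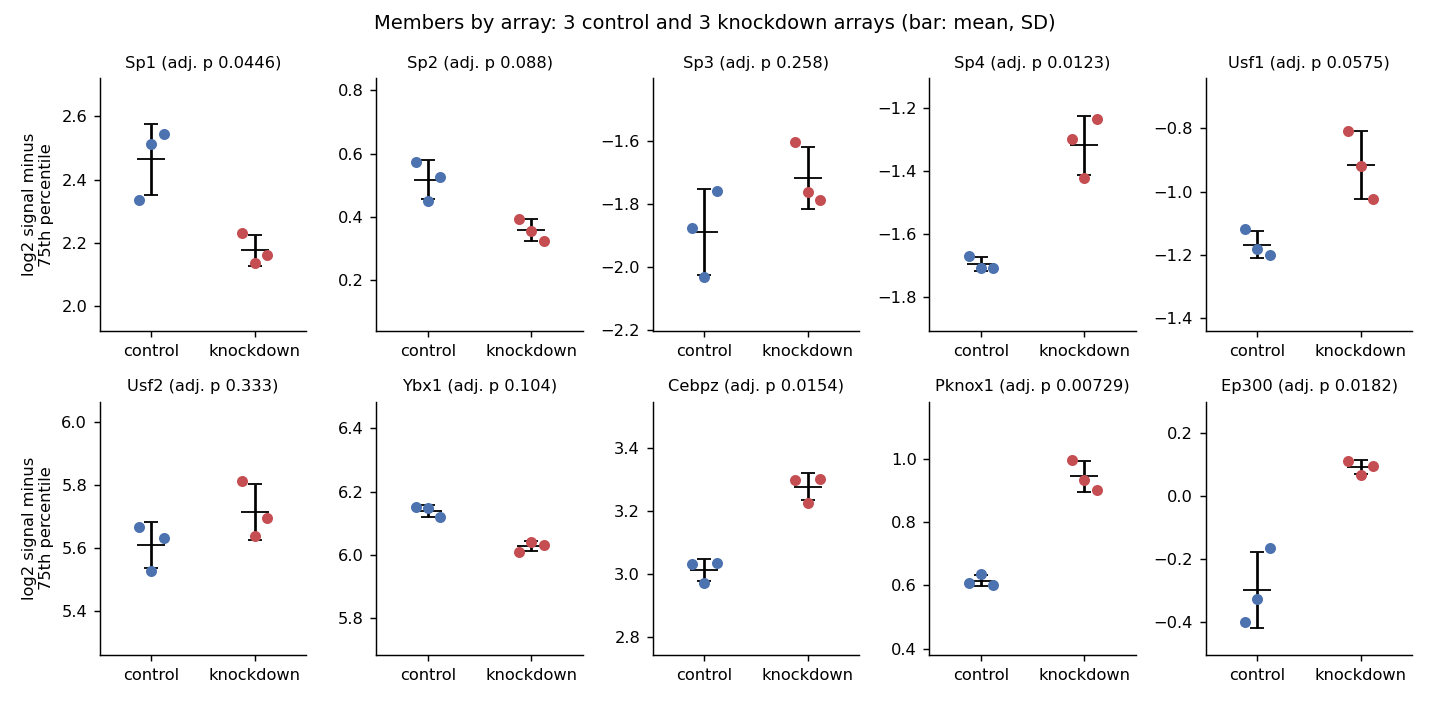
Log2 signal minus the array's 75th percentile for the brightest probe of each member, with 3 control arrays (blue) and 3 knockdown arrays (red) per panel, the mean as a horizontal mark and the SD as the error bar. Every panel spans 0.8 log2 units. Control and knockdown points are separated in 8 panels and overlap for Sp3 and Usf2.

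Within the Sp family, which binds GC boxes through zinc fingers of the same type, Sp1 fell, Sp4 rose, and Sp2 and Sp3 did not pass. Sp1, the founding activator of the family (probe A_66_P101755), read 2.34, 2.51 and 2.54 on control arrays and 2.23, 2.14 and 2.16 on knockdown arrays. All knockdown arrays lay below all controls, with the nearest pair 0.10 apart. The mean fell from 2.46 ± 0.11 (SD, n = 3) to 2.18 ± 0.049 (SD, n = 3). This is a change of -0.29 (SE 0.072, 95% interval -0.47 to -0.10, limma adjusted p 0.0446), or 81.9% of control. Among the 7 members with a matched window, Sp1 alone held a CCAAT match overlapping a GC box. Whether this bears on the change was not tested.

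Sp2, a family member that has been found at CCAAT promoters with NF-Y, was read by 2 probes. The brighter one gave 0.57, 0.45 and 0.53 in control and 0.39, 0.36 and 0.32 in knockdown, and all knockdown arrays were lower. Its change was -0.16 (SE 0.051, limma adjusted p 0.0880), which did not pass. The dimmer probe read -3.46, -3.56 and -3.30 in control and -3.34, -3.31 and -3.47 in knockdown, where the groups overlapped. Its change of 0.062 (95% interval -0.16 to 0.28) had the opposite sign, so the probes gave no common direction for Sp2.

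Sp3, which can activate or repress the promoters that Sp1 occupies, read -1.87, -2.03 and -1.76 in control. On knockdown arrays it read -1.60, -1.76 and -1.79, and the groups overlapped. The change was 0.17 (95% interval -0.065 to 0.41, limma adjusted p 0.258), so that a rise or a small fall lay within the interval. Sp4, a family member abundant in neurons (probe A_55_P2368625), read -1.67, -1.71 and -1.71 in control and -1.30, -1.42 and -1.24 in knockdown. All knockdown arrays were higher, with the nearest pair 0.25 apart. Sp4 rose by 0.38 (SE 0.061, 95% interval 0.22 to 0.53, limma adjusted p 0.0123), or 1.30-fold.

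The Sp factors were then compared with each other, on each array as one gene's value minus another's, in 6 pairs, a comparison added after the values were seen. The change of Sp4 exceeded that of Sp1 by 0.66 log2 units and that of Sp2 by 0.53. The change of Sp3 exceeded that of Sp1 by 0.46 and that of Sp2 by 0.33. In these 4 pairs the groups did not overlap, and the two-sided exact permutation test gave p = 0.1 for each, the smallest that 20 assignments of 3 arrays against 3 allow (0.15 adjusted over the pairs). Sp4 exceeded Sp3 by 0.21 (exact permutation p 0.2, adjusted 0.24) and Sp2 exceeded Sp1 by 0.13 (exact permutation p 0.4, adjusted 0.4). None of these can reach 0.05 in this design.

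The Usf factors are E-box binding proteins of the basic helix-loop-helix leucine zipper class that bind as homodimers or as a heterodimer. Usf1 read -1.12, -1.18 and -1.20 in control and -0.81, -0.92 and -1.02 in knockdown. All knockdown arrays were higher than all controls, with 0.097 between the nearest arrays. The change was 0.25 (SE 0.069, limma adjusted p 0.0575), with a 95% interval of 0.076 to 0.43. It missed the threshold here but passed in 3 of 17 alternative settings, a filter on signal well above background (limma adjusted p 0.0361), an intensity trend (0.0198) and normexp with quantile normalization (0.0144). Usf2, its dimer partner, read 5.67, 5.53 and 5.63 in control and 5.81, 5.64 and 5.69 in knockdown on the brighter probe. The groups overlapped, and the change was 0.11 (95% interval -0.067 to 0.28, limma adjusted p 0.333). The dimmer Usf2 probe gave 0.052 (95% interval -0.089 to 0.19).

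Ybx1 and Cebpz carry names that refer to CCAAT-containing promoters, although both are also known for work on RNA. Ybx1, an abundant cold shock domain protein that packages mRNA, read 6.15, 6.15 and 6.12 in control and 6.01, 6.04 and 6.03 in knockdown. The arrays were tightly grouped and did not overlap. The change was -0.11 (SE 0.039, limma adjusted p 0.104), or 92.5% of control, and it did not pass. The other Ybx1 probe gave -0.047 (95% interval -0.16 to 0.068). A pseudogene copy of Ybx1 is annotated in the mouse genome, and whether the probes also detect it was not tested.

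Cebpz, a nucleolar protein of large ribosomal subunit assembly (probe A_52_P109403), read 3.03, 2.97 and 3.03 in control. On knockdown arrays it read 3.30, 3.23 and 3.30, above every control. Cebpz rose by 0.26 (SE 0.046, 95% interval 0.15 to 0.38, limma adjusted p 0.0154), or 1.20-fold. Of 4 related assembly proteins (Noc2l, Noc3l, Noc4l and Nop14) none passed the limma adjusted p (2 were higher at an unadjusted p below 0.05), and their changes lay between 0.020 and 0.14.

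Pknox1 (Prep1), a TALE-class homeodomain factor that dimerises with Pbx proteins, had the smallest adjusted p of the members on either of its probes. The brighter probe (A_52_P431894) read 0.61, 0.64 and 0.60 in control and 1.0, 0.93 and 0.90 in knockdown. The nearest arrays of the groups were 0.27 apart. Pknox1 rose by 0.33 (SE 0.045, 95% interval 0.21 to 0.44, limma adjusted p 0.00729), or 1.26-fold. The dimmer probe rose from -1.41, -1.28 and -1.17 to -0.74, -0.72 and -0.76. Its change was 0.55 (SE 0.071, limma adjusted p 0.00635), or 1.46-fold, so both probes rose. Over the 6 arrays, the genes with a pattern most like the brighter probe were Gdpgp1 (Pearson r 0.9996), Bbof1 (0.9992) and Slc11a1 (0.9991), among 13980 genes well above background on all arrays. With 6 arrays in 2 groups such values describe the group difference and the few deviations around it.

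Ep300, the p300 acetyltransferase that NF-Y brings to promoters (probe A_52_P411601), had the largest change among the brightest probes of the members. It read -0.40, -0.33 and -0.17 in control and 0.11, 0.066 and 0.096 in knockdown. The control arrays were spread more widely than the knockdown arrays, and the groups did not overlap. Ep300 rose by 0.39 (SE 0.072, 95% interval 0.21 to 0.57, limma adjusted p 0.0182), or 1.31-fold. Over all genes tested, 74.5% had a smaller absolute change. Crebbp, the close relative of p300, was looked up after its value was seen and changed by 0.33 (SE 0.041, limma adjusted p 0.00556).

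**Figure D3:**
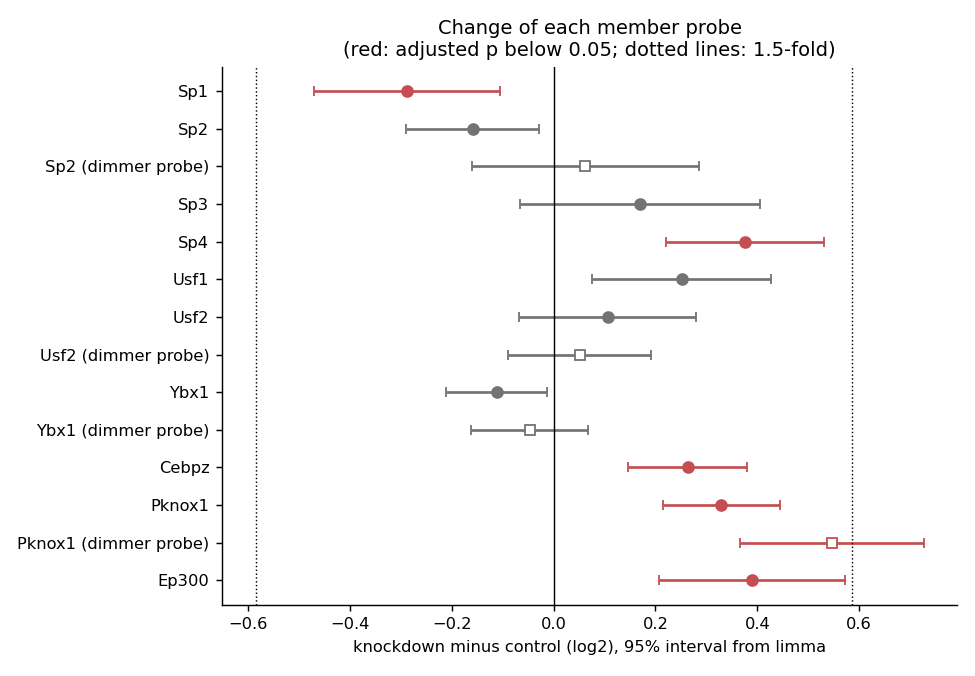
Knockdown minus control on the log2 scale for the 14 probes of the 10 members, with 95% intervals from limma. Filled circles are the probe that represents a gene and open squares its dimmer probe, red marks adjusted p below 0.05, and dotted lines stand at 1.5-fold. Sp1 lies at -0.29, and Sp4, Cebpz, both Pknox1 probes and Ep300 lie between 0.26 and 0.55.

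Passing the adjusted p alone depended on the processing for all 5 of these genes. Pknox1 passed in 16 of 17 alternative settings, Sp4 in 13, Cebpz in 10, Ep300 in 9 and Sp1 in 6. With slide row as a block, where the change rests on knockdown replicate 1 against the controls, Pknox1 changed by 0.38 (limma adjusted p 0.0409). Under that block the other values did not pass, at 0.40 for Sp4 (limma adjusted p 0.0873), 0.29 for Cebpz (0.0909), 0.41 for Ep300 (0.109) and -0.23 for Sp1 (0.262). Scaling on the median of all probes in place of the 75th percentile moved the median of all genes to -0.11 and left no member past the threshold. The values on that shifted scale were 0.21 for Pknox1, 0.15 for Cebpz, 0.26 for Sp4, 0.27 for Ep300 and -0.40 for Sp1. Normexp with quantile normalization gave 0.21 for Sp4 (limma adjusted p 0.0221) and -0.16 for Sp1 (limma adjusted p 0.188). Leaving out 1 array ended the Sp4 result only without control replicate 2 (0.37, limma adjusted p 0.0521). The Cebpz result ended without control replicate 1 (0.27) or 2 (0.24) and without knockdown replicate 1 (0.25) or 3 (0.25), at limma adjusted p of 0.0533 to 0.0654. The Ep300 result held without control replicate 3. It ended without control replicate 1 (0.34) or 2 (0.37) and without knockdown replicate 1 (0.38), 2 (0.40) or 3 (0.39), at limma adjusted p of 0.0535 to 0.0690. The Sp1 result held without control replicate 1. It ended without control replicate 2 (-0.26) or 3 (-0.25) and without knockdown replicate 1 (-0.31), 2 (-0.27) or 3 (-0.28), at limma adjusted p of 0.0848 to 0.133.

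**Figure D4:**
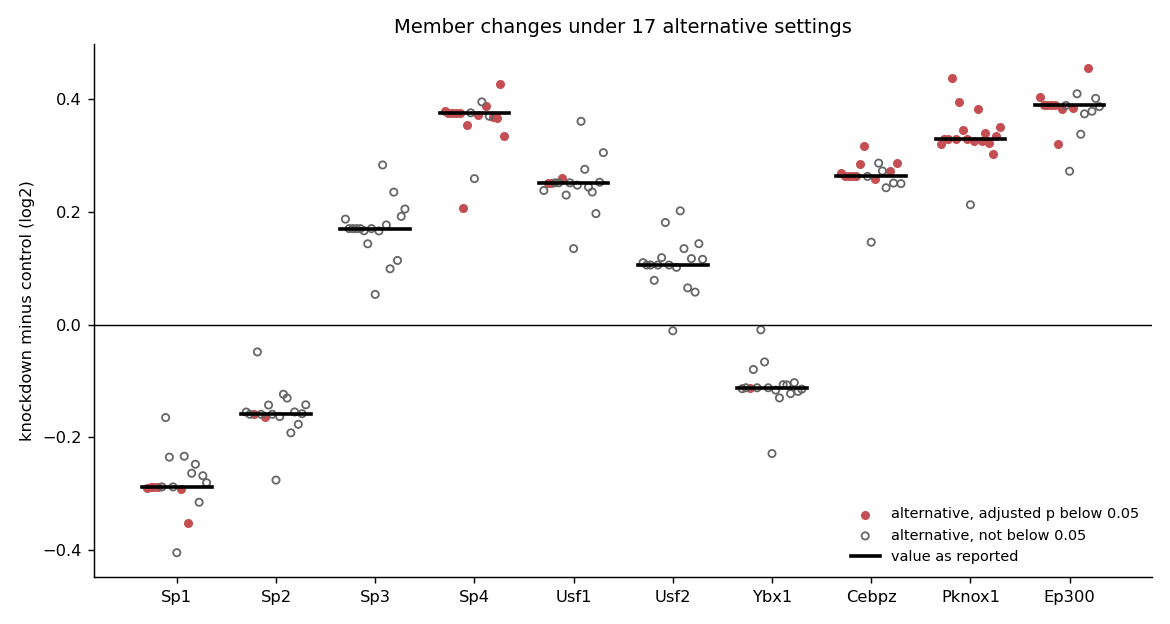
Knockdown minus control (log2) of each member under 17 alternative settings. Black bars are the values as reported, filled red points have adjusted p below 0.05 and open points do not. Points of Pknox1 are red in 16 of 17 settings and those of Sp1 in 6, and Usf2 alone has a point across zero, at -0.011.

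Related factors were counted in 8 lists of 112 genes, of which 105 were tested. Of these, 6 were called lower and 8 higher, and under adjusted p alone 16 were lower and 24 higher. The shares over all genes were 5.00% called lower and 3.91% higher. Under adjusted p alone they were 15.8% and 15.7%. These shares are also the background for each list that follows. Their median change was -0.0076, against 0.0053 over all genes.

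Among 18 tested Sp and Klf relatives, 1 was called lower and 2 higher, with a median of 0.25. Klf9, which is induced by thyroid hormone and glucocorticoids, rose from -0.81 ± 0.043 (SD, n = 3) to 0.24 ± 0.051 (SD, n = 3), a change of 1.05 (limma adjusted p 0.000501). Klf4, one of the reprogramming factors, rose by 0.88 (limma adjusted p 0.000791). Klf8 fell by 0.77 on the log2 scale (limma adjusted p 0.00203). These 3 were called in all 17 alternative settings that keep the 1.5-fold minimum. At a 2-fold minimum Klf4 and Klf8 lost their calls.

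Of 20 tested E-box factors of the Usf class, 3 were called lower and 3 higher, with a median of -0.043. Mycn, the neuroblastoma oncogene, fell by 0.69 on the log2 scale (limma adjusted p 0.00488) and lost its call with slide row as a block (-0.70). Mycl passed the call rule (limma adjusted p 0.0368) but was well above background on the knockdown arrays alone, so no fold is given. The Mycl call was lost in 12 of 17 settings, among them each of the 6 that leave out an array. Mxi1, a Max-binding antagonist of Myc, passed the call rule, but no array read it well above background, so no fold is given. The other called genes were Usf3 (-0.67), Srebf1 (-0.67) and Mxd1 (0.61), named after their values were seen. For Usf3, the third Usf gene, the mean of its probes changed by -0.089 (limma adjusted p 0.592). The fall thus rests on the brightest probe and was not shared by its probes together. Usf3 also lost its call under normexp with quantile normalization (-0.47) and with slide row as a block (-0.70). The Mxd1 call was lost in 5 of 17 settings, at 0.28 as the mean of its probes, 0.45 under normexp with quantile normalization, 0.49 with scaling on the median, 0.58 after quantile normalization and 0.58 without control replicate 2.

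Of 7 cold shock domain proteins 1 was called. Lin28b, a repressor of let-7 maturation, fell by 0.84 on the log2 scale (limma adjusted p 0.000846), and the list's median was -0.086. Of 5 tested C/EBP family genes 1 was called. Cebpd, an early response factor, rose from 0.33 ± 0.0065 (SD, n = 3) to 1.43 ± 0.031 (SD, n = 3), a change of 1.1 (limma adjusted p 0.000332). Of 9 tested TALE factors 2 were called, Tgif2 with a rise of 0.80 and Pbx3, a dimer partner of Pknox1, with a rise of 0.63 (limma adjusted p 0.000980 and 0.00286). The Pbx3 call was lost with scaling on the median (0.52).

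Of 19 acetyltransferases, deacetylases and coactivators none was called by limma. At an unadjusted limma p below 0.05, 5 were lower and 7 higher, against 22.9% and 23.2% over all genes. Under adjusted p alone 2 were lower and 6 higher, against 15.8% and 15.7% over all genes, with a median of -0.0076. Of 23 other promoter-proximal factors 1 was called. Creb1, the cAMP response factor, fell by 0.82 on the log2 scale on its brightest probe (limma adjusted p 0.00130). The mean of its probes changed by -0.61 (limma adjusted p 0.00876). Under adjusted p alone 4 of the 23 were lower and 5 higher, beside the same shares over all genes, with a median of -0.093.

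**Figure D5:**
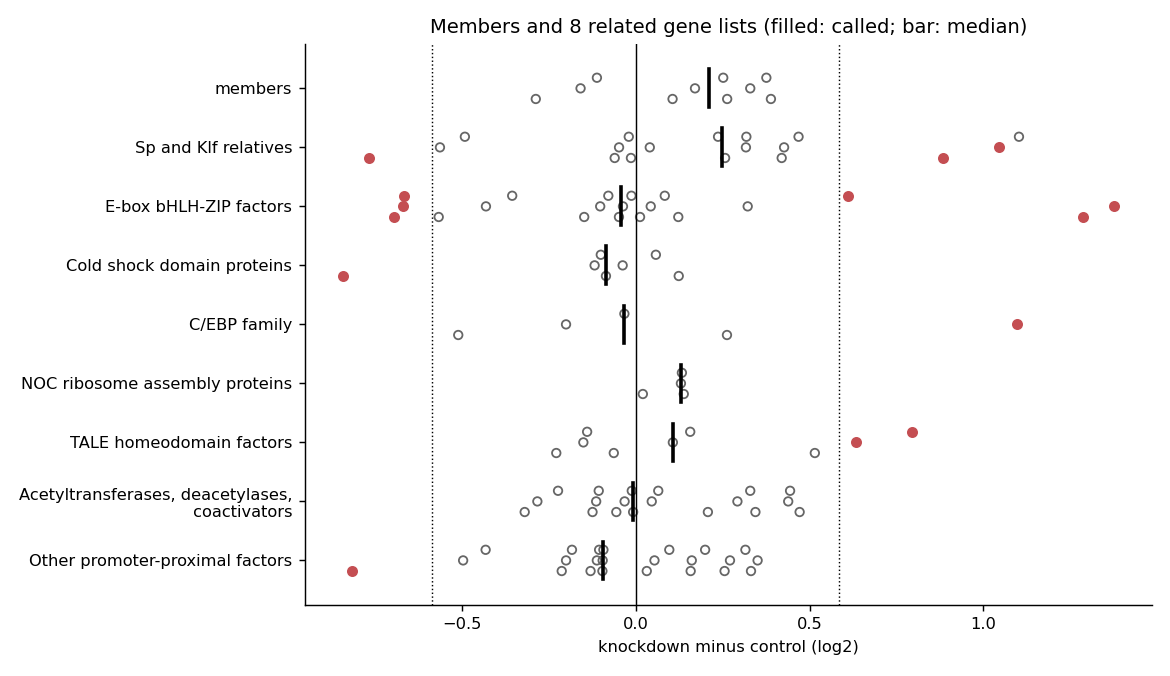
Knockdown minus control (log2) for the 10 members and the tested genes of 8 related lists. Each point is a gene, filled points were called, black bars are medians and dotted lines stand at 1.5-fold. On their brightest probes, all members lie between -0.29 and 0.39. The 2 points farthest right among E-box factors, Mycl and Mxi1, rest on signal not well above background in control and are no measure of size.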

How the data were processed

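Total RNA was labelled with Cy3 and hybridised to Agilent SurePrint G3 mouse arrays, per the labels. Processed signal, an intensity after background correction in Feature Extraction 10.10.1.1, was deposited by the authors for each array beside other columns that flag outliers, saturation and signal over background. A series matrix was also deposited, in log2 values whose scaling is not stated, and served as an alternative.

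Control and outlier spots were left out, log2 processed signal was centred on the 75th percentile of each array, and a probe's spots were then averaged. On at least 1 array 245 of the 55681 probes had no value. Probes that reached the 20th percentile of their array on all 3 arrays of a group were tested (42126). Accessions were matched to symbols in a RefSeq table (GRCm38.p6), unversioned, which named 25869 of 26392 curated mRNA probes. A gene was read from its brightest tested probe. The members had 14 probes, all tested and well above background on all 6 arrays. Knockdown was set against control by a two-sided moderated test (lmFit, eBayes) of limma 3.58.1, run in R 4.3.3, and the code was tested on simulated data. The number of arrays limits the precision.

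By rule, named genes are the members, the NF-Y subunits, up to 3 called genes per related list by size, and the 3 genes most like the member of smallest adjusted p. Crebbp, the NOC assembly proteins and 3 further called E-box genes (Usf3, Srebf1 and Mxd1) fall outside this rule and were named after their values were seen. No fold is given for a gene where all arrays of a group failed the software's test for signal over background. The members, lists and tests were chosen with earlier results of these data known. The alternatives were quantile normalization, scaling on the median, normexp (offset 50, on median foreground and background signal, since the tables used hold no mean foreground), the series matrix, 2 other filters, an intensity trend, array weights, the replicate number or slide row as a block, the mean of a gene's probes, a 2-fold minimum and leaving out each array.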

Additional observations from a re-analysis of the deposited data

How the results depend on the processing

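No member was called in any of the 17 refits. A 2-fold minimum on the reported fit could call none, since none passed at 1.5-fold. Under adjusted p alone, the members lower and higher (1 and 4 as reported) were 0 and 0 with scaling on the median, 0 and 1 with slide row as a block, and 0 and 1 with the replicate block. The lower count was 0 after quantile normalization and without a filter, and 3 with an intensity trend (Sp1, Sp2 and Ybx1). The higher count was 5 with that trend, with the filter on signal well above background and under normexp, where Usf1 passed. Leaving out each array gave 0 to 1 lower and 1 to 4 higher. Normexp with quantile normalization kept 1 lower member, but Sp2 (-0.16, limma adjusted p 0.0350) in place of Sp1 (-0.16, limma adjusted p 0.188), and moved Sp4 to 0.21 and Ybx1 to -0.0090. Usf2 changed sign with scaling on the median, at -0.011. That scaling moved the median change of all genes to -0.11, against 0.0053, and the share of lower calls to 75.5% (1175 lower, 382 higher), against 56.1% (824 and 644). Under normexp 557 genes were called lower and 286 higher, and 2799 were lower and 3372 higher under adjusted p alone. The all-gene counts under adjusted p alone were 3450 lower and 3474 higher of 16490 with the intensity trend. They were 2968 and 2953 of 14576 with the filter on signal well above background. Quantile normalization gave 2584 and 2997, and no filter 2078 and 2029 of 20099. These are the background for the member counts in the same settings. Under adjusted p alone 2602 genes were lower and 2597 higher, against 1603 and 1327 with the replicate block, 999 and 902 with slide row and 858 higher with scaling on the median.

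Replicate numbers are not stated to pair the arrays, and the names given to the arrays number them differently from the sample titles used here, so that the replicate block tests the title numbers alone. Deviations of arrays with the same title number correlated by 0.018, 0.067 and 0.0025 across probes. The 2 pairs that share a number in the array names correlated by -0.0042 and 0.0025. Among all pairs the highest values were 0.067, for replicate 2 of both groups, and 0.063, for control replicate 3 with knockdown replicate 1. With the replicate number as a block, Pknox1 (0.33, limma adjusted p 0.0460) stayed past the threshold, and the block ended the result for Sp4 (adjusted p 0.0518), Cebpz (0.0513), Ep300 (0.0625) and Sp1 (0.124).

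Related genes called lower and higher (6 and 8 as reported) were 10 and 5 with scaling on the median and 0 and 4 at a 2-fold minimum. The higher count was 5 after quantile normalization. Leaving out each array gave 6 to 7 lower and 5 to 7 higher. The longer CCAATC was found in 2 member windows, against 5 for CCAAT. The causes were not tested.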
